A study of Homo sapiens with 8 samples.

Results

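The genes described here encode the subunits of AP-1, the dimeric transcription factor built from JUN and FOS proteins, together with 3 relatives that share its DNA-binding domain. The 10 genes are JUN, JUNB, JUND, FOS, FOSB, FOSL1, FOSL2, BATF, BATF3 and MAFF. Members were all probe sets whose platform symbol is 1 of these names, which gave 27 of the 45253 probe sets with 1 symbol and 10 of 18239 genes. No probe set listing several symbols held a member (0 of 1327). FOSL1 had 6 probe sets, FOSL2 had 5, JUN and FOS had 4 each, FOSB and MAFF had 2 each, and JUNB, JUND, BATF and BATF3 had 1 each. Where a single value stands for a gene, it comes from its brightest probe set, the one whose average across the 8 arrays is highest.

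The cells were NS-SV-AC, an immortalised line labelled as human salivary gland acinar cells. They were given TNF-α at 20 ng/ml, an inflammatory cytokine, or bovine serum albumin (BSA) as the control protein, and RNA was taken at 2, 6, 12 and 24 h on 1 Affymetrix GeneAtlas array for each treatment and time. No treatment and time was replicated. With time as a factor, p-values for TNF-α minus BSA rest on the spread of that difference between times, which holds array noise and change with time together. Those for slopes and for the change of the difference with time rest on how far arrays lie from a straight line in time within each arm. In both, limma moves each gene's spread toward that of all genes, so a printed SE is not that gene's own spread alone. Values are on the log2 scale as deposited, and the number of arrays limits their precision.

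The array of TNF-α at 24 h stood apart. Its mean correlation with the other arrays across genes was 0.925, against 0.962 to 0.994 among the other 7, and its GAPDH signal from the 3′ end of the transcript exceeded that from the 5′ end by 6.28, against 0.20 to 0.37 elsewhere. Results over 2, 6 and 12 h therefore come first, and 24 h values are given beside them. Defining markers went partly against the label. Of 7 acinar genes measured, AQP5, STATH, PRB1, MUC7 and BHLHA15 were under the median of all probe sets (4.36 to 4.39) on all 8 arrays, PIP was above it on 1 and SLC12A2 on all 8. Of 6 epithelial genes EPCAM, CDH1, KRT19 and KRT7 were under it on all 8. KRT18 was above it on all 8 and KRT8 on 7. Of 5 fibroblast genes the matrix genes COL3A1, DCN and LUM were above it on all 8, and COL1A1 and COL1A2 were under it on all 8. Of 4 basal or myoepithelial genes KRT5 and ACTA2 were above it on all 8, CNN1 on 7 and KRT14 on 0. Of 4 endothelial genes PECAM1 and VWF were above it on all 8, CDH5 and KDR on 0. The summed level of the 6 epithelial genes was 10.0 to 10.8 in BSA and 7.90 to 10.6 in TNF-α. KRT18 read 7.36 in TNF-α at 24 h. For the 5 fibroblast genes the sum was 9.86 to 10.3 and 9.87 to 10.7, and for the 7 acinar genes 7.62 to 8.10 and 7.70 to 8.45. Sums were 6.35 to 6.51 and 6.48 to 6.84 for the basal or myoepithelial genes, and 6.17 to 6.28 and 6.27 to 6.44 for the endothelial genes. For the 5 leukocyte genes they were 5.79 to 5.98 and 5.95 to 6.16. Whether these bear on the AP-1 values was not tested.

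AP-1 proteins bind DNA as pairs through a basic region and a leucine zipper. JUN proteins can pair with themselves or with FOS proteins, whereas FOS proteins need a JUN partner. FOS and JUN are immediate early genes, switched on from signals that are already in the cell, and TNF-α receptors feed them through the JNK, p38 and ERK kinase cascades. FOSL1 (Fra-1) and FOSL2 (Fra-2) lack the strong activation domain of FOS and are usually made later and for longer.

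The start regions of the genes are shown because JUN is known to bind and drive its own promoter through an AP-1-like site. The 250 bases upstream of the annotated start are given 5′ to 3′, with searched motifs in capitals. They are shown for the 3 members with an exact match to an AP-1-like or cyclic AMP response element sequence searched (JUN, MAFF and JUND), for FOS, and for FOSL2. Variant forms of these elements were not searched and are not marked. The windows come from RefSeq, build GRCh38.p14, which held them for 8 of the 10 genes. FOSL1 and BATF3 were not among them.
JUN, chr1:58784048-58784297, minus strand: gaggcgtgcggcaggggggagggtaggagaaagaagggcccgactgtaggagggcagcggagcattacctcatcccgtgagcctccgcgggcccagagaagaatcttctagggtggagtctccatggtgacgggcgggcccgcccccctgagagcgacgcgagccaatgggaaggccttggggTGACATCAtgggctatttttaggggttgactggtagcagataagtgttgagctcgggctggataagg
MAFF, chr22:38201744-38201993, plus strand: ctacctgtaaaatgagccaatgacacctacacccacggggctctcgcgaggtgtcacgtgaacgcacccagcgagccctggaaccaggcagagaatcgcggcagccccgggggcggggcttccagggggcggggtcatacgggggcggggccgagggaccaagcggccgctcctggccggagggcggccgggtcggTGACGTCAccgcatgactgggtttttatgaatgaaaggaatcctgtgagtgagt
JUND, chr19:18281623-18281872, minus strand: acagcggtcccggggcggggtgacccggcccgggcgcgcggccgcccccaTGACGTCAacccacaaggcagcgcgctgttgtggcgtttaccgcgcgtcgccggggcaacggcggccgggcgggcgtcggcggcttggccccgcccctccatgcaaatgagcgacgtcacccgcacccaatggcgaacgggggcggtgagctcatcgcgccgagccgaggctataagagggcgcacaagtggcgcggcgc
FOS, chr14:75278578-75278827, plus strand: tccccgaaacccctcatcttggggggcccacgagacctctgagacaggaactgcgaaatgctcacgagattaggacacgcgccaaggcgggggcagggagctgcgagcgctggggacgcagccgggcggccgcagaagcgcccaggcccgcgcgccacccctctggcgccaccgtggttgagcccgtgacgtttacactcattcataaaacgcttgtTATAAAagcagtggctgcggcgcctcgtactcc
FOSL2, chr2:28392608-28392857, plus strand: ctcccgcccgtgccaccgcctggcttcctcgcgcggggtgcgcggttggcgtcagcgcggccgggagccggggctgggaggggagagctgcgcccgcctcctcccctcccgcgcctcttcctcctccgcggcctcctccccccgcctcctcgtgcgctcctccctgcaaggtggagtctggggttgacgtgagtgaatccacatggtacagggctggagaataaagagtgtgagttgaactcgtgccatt
The letters searched on both strands were TGACTCA (the classical AP-1 site), TGACATCA (the form in the JUN promoter), TGACGTCA (the cyclic AMP response element), GGG and TTCC with 3 free bases between them (a form of the NF-κB site) and TATAAA (the TATA box). JUN held TGACATCA from 67 to 60 bases before the start, and MAFF held TGACGTCA from 54 to 47 before it. JUND held TGACGTCA from 200 to 193 before its start. FOS, FOSB and JUNB held TATAAA within 33 bases of the start, BATF held GGGTTTTTCC, and FOSL2 held none of these letters in the window, nor did the further start that RefSeq lists for MAFF. Of 35116 windows of this length, 2.38% held TGACATCA, 1.65% TGACGTCA, 4.20% TGACTCA, 5.67% that NF-κB form and 10.7% TATAAA. A match is a description of the letters and not of binding.

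Over 2 to 12 h the test called 4 AP-1 subunit genes higher with TNF-α than with BSA and none of the 10 lower. FOSL2 was higher by 1.69 ± 0.17 (SE, 3 pairs of arrays), JUN by 1.57 ± 0.07, MAFF by 1.56 ± 0.17 and FOSL1 by 0.85 ± 0.09, each higher in 3 of 3 pairs. These are mean gaps between arms, not increases from 2 h. FOS, FOSB, JUNB, JUND, BATF and BATF3 lay between 0.01 and 0.31 and did not pass. With limma and p adjusted over all genes, the 4 had adjusted p = 0.0334, 0.00305, 0.0415 and 0.0438 in that order. Over all genes 0.318% were called higher and 0.0493% lower. The members' median difference was 0.34, 0.37 and 0.27 at 2, 6 and 12 h, against −0.02, −0.01 and 0.00 over all genes, and 7 of 10 members were higher at all 3 times, where 15.7% of all genes were.

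**Figure D1:**
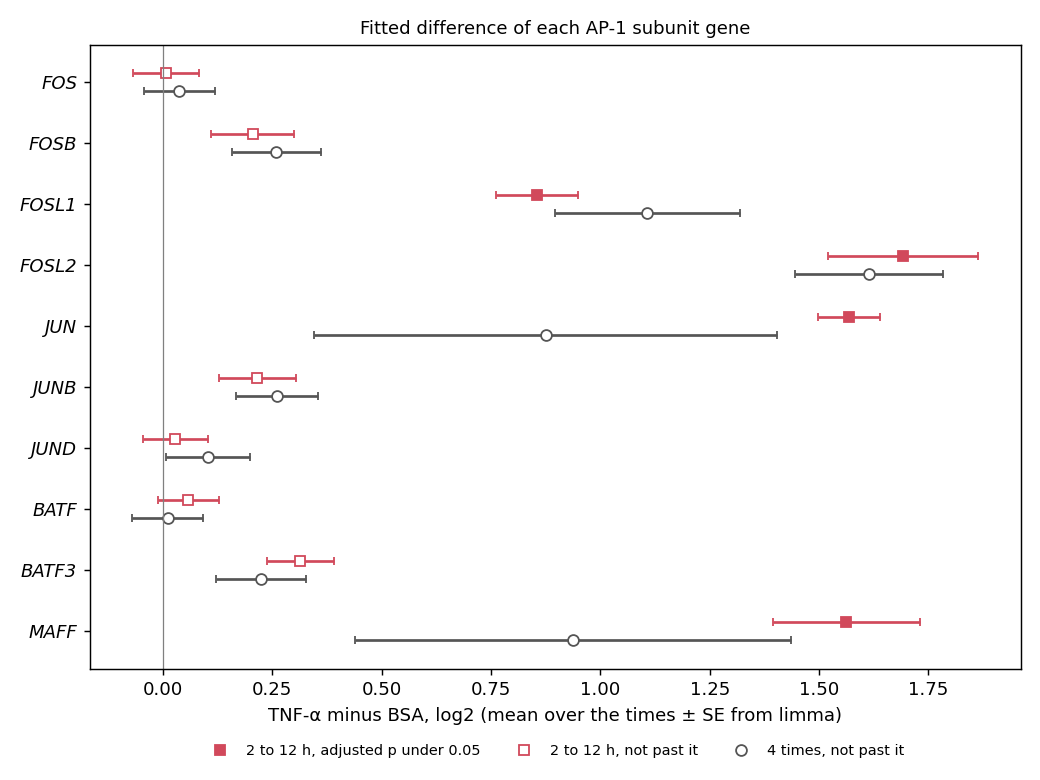
TNF-α minus BSA (log2, x axis) for each of the 10 AP-1 subunit genes (y axis), as the mean over 2, 6 and 12 h (squares, 3 pairs of arrays) or over all 4 times (circles, 4 pairs) with the SE from limma. Filled symbols mark adjusted p under 0.05: FOSL1, FOSL2, JUN and MAFF were filled over 2 to 12 h, and no gene was over the 4 times.

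The 4 calls depended on which pairs of arrays and probe sets entered. Without the 6 h pair 0 of 10 were called by limma (6 at an unadjusted p under 0.05), with adjusted p of 0.0677 for JUN, 0.0943 for FOSL2, 0.402 for FOSL1 and 0.486 for MAFF, and 0 of all genes were called (1202 unadjusted). Without the 12 h pair JUN and MAFF remained called, while FOSL1 (0.0787) and FOSL2 (0.0538) did not, and 0.280% of all genes were called higher. Without the 2 h pair all 4 remained called, and 2.79% of all genes were called higher. With the 24 h pair added none was called, and 0.0164% of all genes were. The adjusted p over the 4 times was then 0.269 for FOSL2 (1.61 ± 0.17), 0.483 for FOSL1 (1.11 ± 0.21), and 0.652 for both JUN (0.88 ± 0.53) and MAFF (0.94 ± 0.50). At an unadjusted p under 0.05 there were 4 members of 10 over the 4 times, where 7.51% of all genes were.

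**Figure D2:**
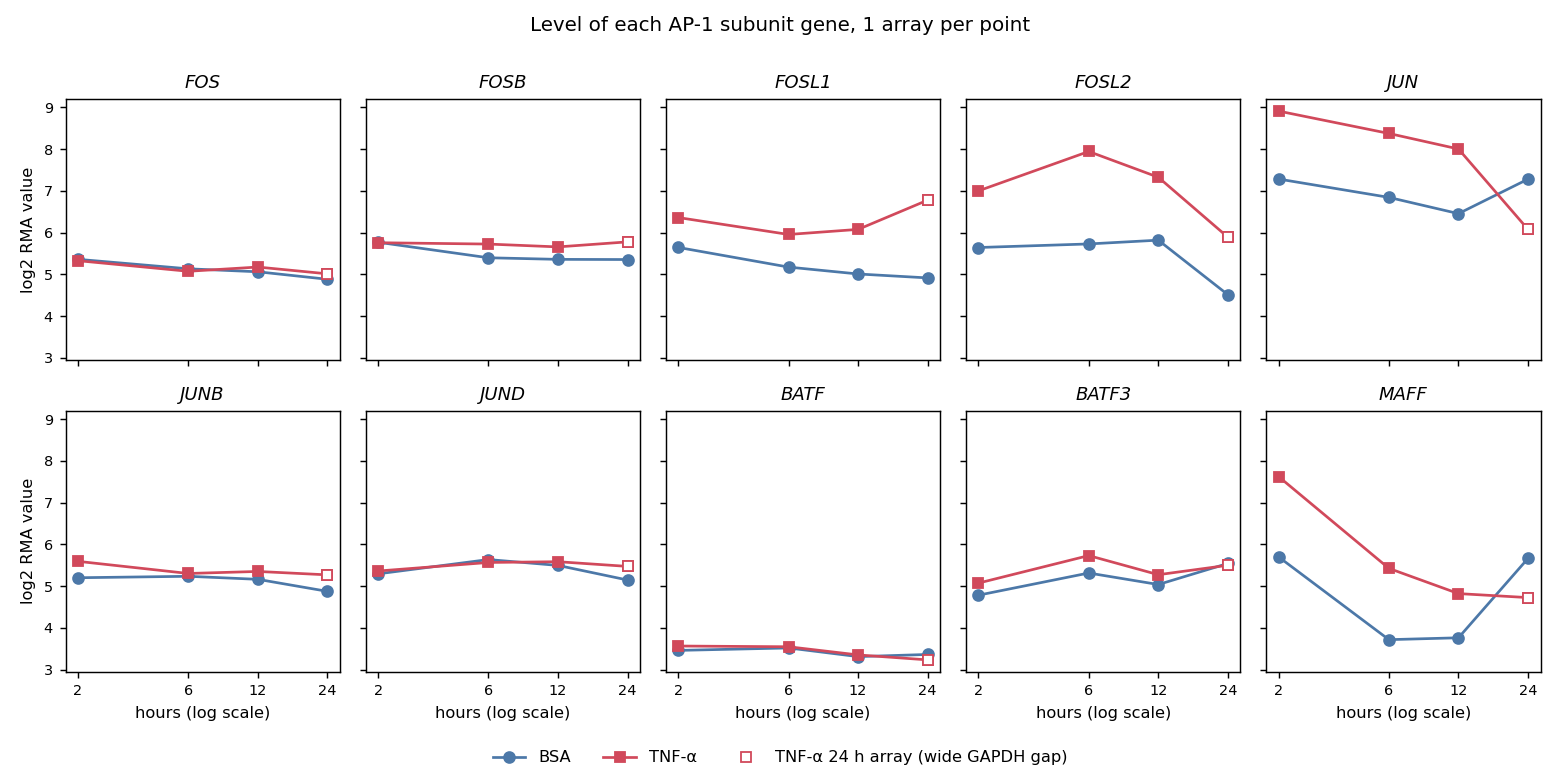
Level (log2 RMA value, y axis) of each AP-1 subunit gene against hours of treatment (x axis, log scale), 1 array per point, BSA as blue circles and TNF-α as red squares, with the TNF-α array at 24 h unfilled. JUN, FOSL2, FOSL1 and MAFF separate at 2, 6 and 12 h, while JUND and BATF lie together; at 24 h JUN and MAFF lie lower in TNF-α than in BSA.

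JUN, the core activating subunit, read 7.28, 6.84, 6.45 and 7.28 in BSA at 2, 6, 12 and 24 h. In TNF-α it read 8.91, 8.37, 8.002 and 6.08. Every TNF-α array from 2 to 12 h was above every BSA array, and the TNF-α array at 24 h was below all 4 of them. The difference was 1.63, 1.53 and 1.55 at the first 3 times, or 3.09-fold, 2.89-fold and 2.92-fold, and −1.20 at 24 h.

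The other 3 probe sets of JUN were also higher with TNF-α from 2 to 12 h. Probe set 11718395_s_at differed by 2.25, 1.20 and 1.22, probe set 11718397_s_at by 2.05, 1.67 and 1.0026, and probe set 11718396_x_at by 1.67, 0.99 and 0.9954. On these 3 the difference was largest at 2 h, whereas on the brightest it was nearly the same at each time. At 24 h 3 of the 4 lay between −1.20 and −0.99, and 11718397_s_at was at 0.24.

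JUNB and JUND are the other JUN proteins. JUNB is a weaker activator that can hold JUN in check, and JUND is present in most resting cells. JUNB read 5.20, 5.24, 5.16 and 4.87 in BSA and 5.59, 5.30, 5.35 and 5.27 in TNF-α. All its TNF-α arrays were above all its BSA arrays, but by little at 6 h, and the difference of 0.22 ± 0.09 from 2 to 12 h did not pass with limma (adjusted p = 0.364). JUND read 5.29, 5.64, 5.50 and 5.15 in BSA and 5.36, 5.57, 5.58 and 5.47 in TNF-α, so the arms overlapped, with a difference of 0.03 ± 0.07. Each rests on 1 probe set of the x_at class, which Affymetrix uses for probes that may also match other sequences. The brightest probe sets of FOSL1, MAFF and FOSB are of that class too.

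Among the FOS proteins the 2 Fra genes were higher with TNF-α and FOS was not. FOSL2 read 5.64, 5.73, 5.82 and 4.51 in BSA and 7.0002, 7.94, 7.33 and 5.89 in TNF-α. The arms did not overlap at any time, and TNF-α at 6 h was the highest array. In the order of the times the difference was 1.36, 2.21, 1.51 and 1.38, or 2.56-fold, 4.64-fold, 2.84-fold and 2.60-fold.

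The 5 probe sets of FOSL2 had the same direction from 2 to 12 h and different sizes. Probe set 11763170_s_at differed by 0.85, 2.296 and 1.62, and 11763169_at by 0.80, 1.82 and 1.03. The remaining 2 were smaller, with 0.29, 0.997 and 0.73 for 11731599_a_at and 0.12, 0.52 and 0.56 for 11731600_a_at. At 24 h the probe sets disagreed, from −0.44 for 11763170_s_at to 1.38 for the brightest. With the mean of the 5 in place of the brightest, FOSL2 was 1.11 ± 0.16 higher from 2 to 12 h and no longer passed (limma adjusted p = 0.109).

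FOSL1 read 5.64, 5.17, 5.01 and 4.92 in BSA and 6.36, 5.96, 6.08 and 6.78 in TNF-α. The arms did not overlap, and the distance between them was 0.72, 0.78, 1.07 and 1.86 at 2, 6, 12 and 24 h. On this brightest probe set the BSA level was lower at each later time, while in TNF-α it was highest at 24 h, on the array that stood apart. In TNF-α 11724478_s_at and 11760573_a_at were highest at 2 h and 11724477_a_at at 12 h. All 6 probe sets of FOSL1, which report 1 gene on the same arrays, had every TNF-α array above every BSA array over the 4 times. Of all probe sets 3.10% did. The differences of the 6 ran in turn from 0.22 to 0.98, from 0.25 to 0.98, from 0.34 to 1.35 and from 0.88 to 1.86. The mean of the 6 gave 0.67 ± 0.09 from 2 to 12 h without passing (limma adjusted p = 0.0871). The change of the difference with time was 0.30 ± 0.14 per doubling of the hours and did not pass (limma adjusted p = 0.827).

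Over all 27 probe sets, 16 had every TNF-α array of 2 to 12 h above every BSA array, namely all those of FOSL1, FOSL2, JUN and JUNB, where 6.10% of all probe sets did. With 24 h included it was 11 of 27, where 3.10% did. Fitted singly with limma, with p adjusted over all 45253, 4 of the 27 were called higher, 1 each of JUN, FOSL2, FOSL1 and MAFF, where 0.186% of all were. For FOSL1 this was 11724478_s_at (1.01 ± 0.08, adjusted p = 0.0241), while the brightest had adjusted p = 0.0510.

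**Figure D3:**
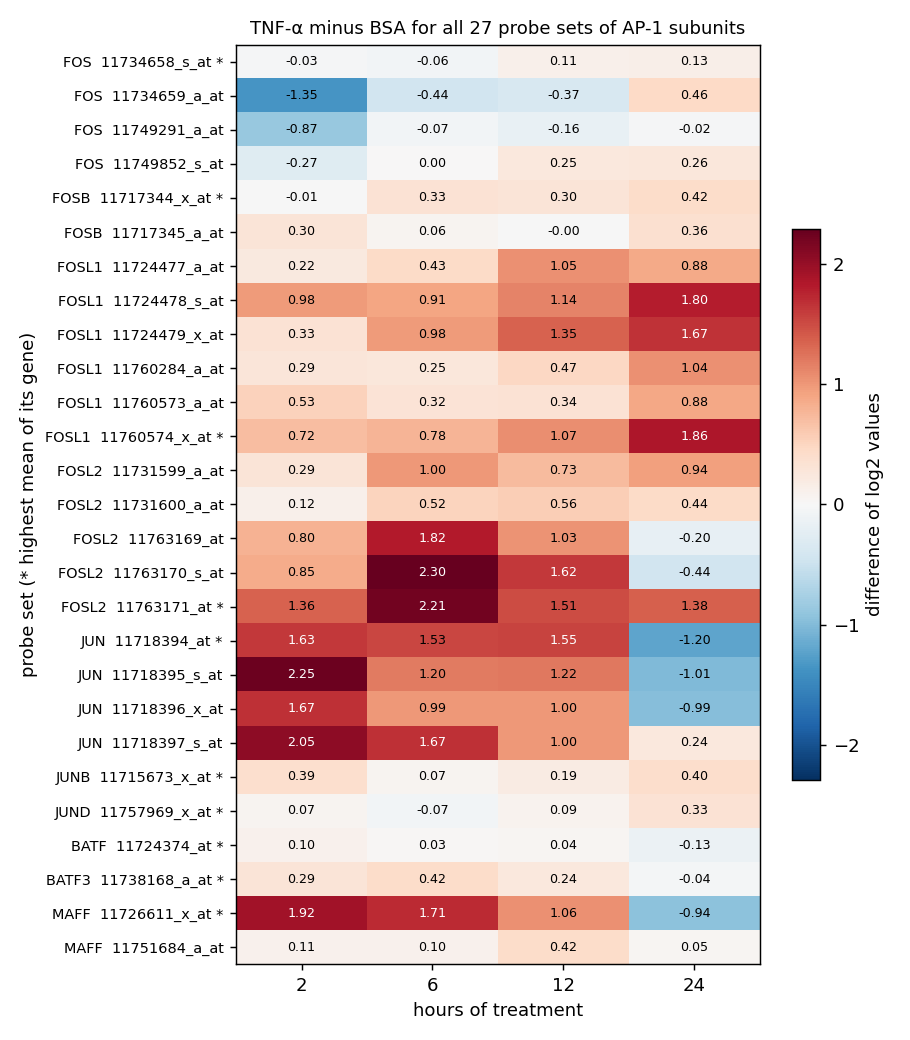
TNF-α minus BSA (log2, colour and printed value) for all 27 probe sets of the 10 genes (rows, an asterisk marks the probe set with the highest mean of its gene) at 2, 6, 12 and 24 h (columns), 1 array per treatment and time. FOSL1, FOSL2 and JUN are positive on every probe set from 2 to 12 h, FOS 11734659_a_at is negative at 2 h (−1.35), and 3 of the 4 JUN probe sets are negative at 24 h.

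FOS, the founding partner of JUN, gave different pictures on its 4 probe sets. On 11734658_s_at, which has the highest mean, it read 5.36, 5.13, 5.06 and 4.88 in BSA and 5.33, 5.07, 5.18 and 5.01 in TNF-α, and the difference from 2 to 12 h was 0.01 ± 0.08. On 11734659_a_at, singled out after its values were seen because it spans the widest range of the 4, it read 7.10, 3.70, 3.71 and 4.93 in BSA and 5.75, 3.26, 3.34 and 5.39 in TNF-α. The 2 h arrays were the highest of their arms, and at 2 h TNF-α was lower than BSA by a difference of −1.35, or 0.392-fold. It was 1 member probe set of 27 at least 2-fold lower at 2 h, where 0.0309% of all probe sets were.

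At the later times the difference of 11734659_a_at was −0.44, −0.37 and 0.46. Over 2 to 12 h it was −0.72 ± 0.20 and did not pass (limma adjusted p = 0.288 over all probe sets). On the TNF-α arrays of 6 and 12 h this probe set was under the lower quartile of all probe sets, so its differences there are limited by background. Probe set 11749291_a_at gave −0.87, −0.07 and −0.16, and 11749852_s_at gave −0.27, 0.00 and 0.25. All 4, which report 1 gene on the same arrays, were below 0 at 2 h. The median over all genes was −0.02 at that time, and 11734658_s_at was at −0.03. FOSB, an immediate early relative of FOS, read 5.77, 5.40, 5.36 and 5.36 in BSA and 5.76, 5.73, 5.66 and 5.78 in TNF-α, and its difference of 0.21 ± 0.09 did not pass (limma adjusted p = 0.404).

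MAFF is a small Maf protein without an activation domain of its own, which pairs with factors such as NFE2L2. It read 5.70, 3.72, 3.76 and 5.66 in BSA and 7.62, 5.42, 4.82 and 4.72 in TNF-α. TNF-α was higher than BSA by 1.92, 1.71 and 1.06 at 2, 6 and 12 h, or 3.79-fold, 3.26-fold and 2.08-fold, and differed by −0.94 at 24 h. The arms overlapped, because BSA at 2 h was above TNF-α at 6 and 12 h. Its other probe set differed by at most 0.42, and the mean of both gave 0.88 ± 0.07 from 2 to 12 h (limma adjusted p = 0.0276).

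BATF and BATF3 are small proteins of immune cells that pair with JUN proteins and join with interferon regulatory factors. BATF read 3.46, 3.52, 3.31 and 3.36 in BSA and 3.57, 3.55, 3.35 and 3.23 in TNF-α. On 4 of the 8 arrays it was under the lower quartile of all probe sets (3.39 to 3.53), which is close to background on these arrays. BATF3 read 4.78, 5.31, 5.04 and 5.54 in BSA and 5.07, 5.73, 5.27 and 5.50 in TNF-α. It was 0.31 ± 0.08 higher from 2 to 12 h in 3 of 3 pairs and did not pass (limma adjusted p = 0.219).

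The control arm was not level over time. For FOS, and for MAFF on its brightest probe set, the distance between BSA arrays was as wide as that between arms. No BSA slope passed, so the values are given as a description. From BSA at 2 h to BSA at 6 h, FOS on 11734659_a_at differed by −3.41, MAFF by −1.98 and FOS on 11749291_a_at by −1.53. These were 3 of 27 probe sets at least 2-fold lower, where 0.789% of all were. At 12 h against 2 h the same 3 were lower, by −3.39, −1.94 and −1.40, where 0.281% of all were. The other MAFF probe set, 11751684_a_at, differed by −0.16 at 6 h and −0.29 at 12 h. No member probe set was 2-fold higher at any later time in BSA.

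At 24 h the BSA arm had partly returned. MAFF was at −0.03 and JUN at 0.00 against BSA at 2 h, after −0.44 and −0.83 for JUN at 6 and 12 h. FOS on 11734659_a_at was still at −2.18. FOSL2 was at −1.13 and FOSL1 at −0.73, each the lowest of its BSA values. In all, 4 of 27 probe sets were at least 2-fold lower at 24 h than at 2 h, where 1.58% of all were.

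**Figure D4:**
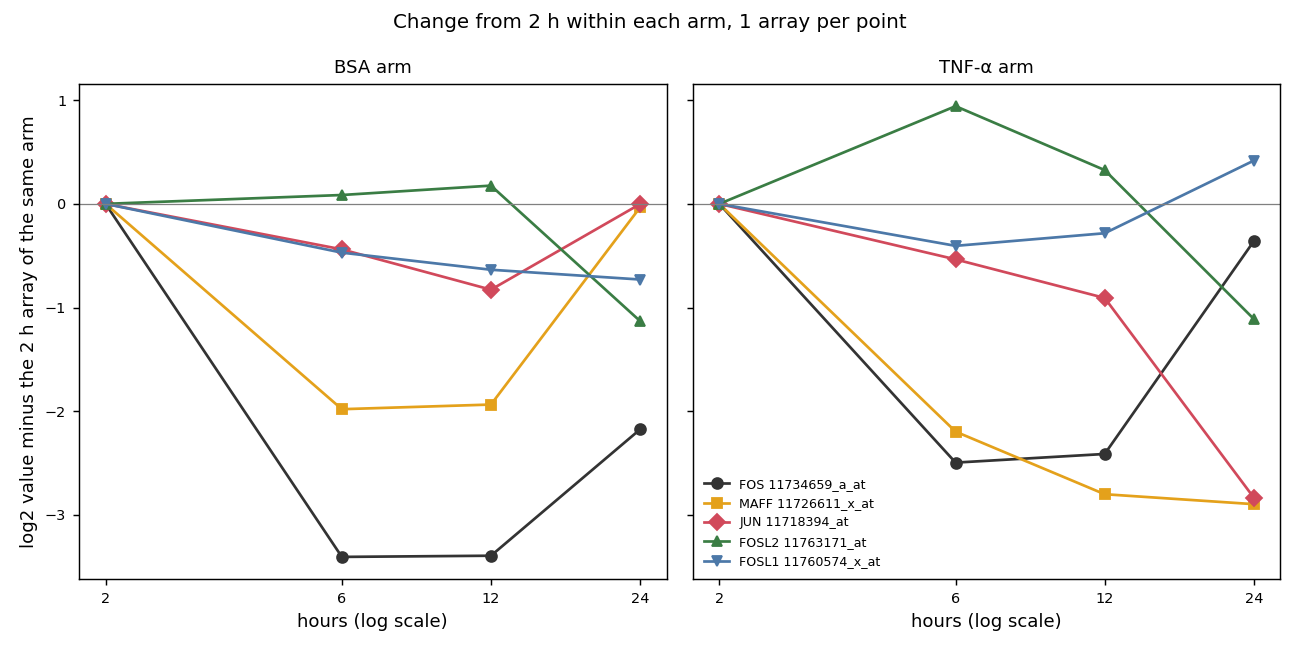
Log2 value minus the 2 h array of the same arm (y axis) against hours (x axis, log scale) for 1 probe set each of FOS, MAFF, JUN, FOSL2 and FOSL1, with BSA on the left and TNF-α on the right, 1 array per point. FOS and MAFF are low at 6 and 12 h in both arms, and in BSA MAFF and JUN are back at their 2 h level at 24 h.

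In the TNF-α arm FOS and MAFF were again lower after 2 h. From 2 h to 6 h FOS on 11734659_a_at differed by −2.50 and MAFF by −2.20, 2 of 27 probe sets at least 2-fold lower, where 0.840% of all were. FOS on that probe set was under the lower quartile of all probe sets on the TNF-α arrays of 6 and 12 h, so the sizes of its differences there are limited by background. FOSL2 was at 0.94, its highest array. From 2 to 12 h 5 of 27 were at least 2-fold lower, where 0.886% of all were. They were these 2 and 3 of the 4 probe sets of JUN, and JUN on its brightest was at −0.91. From 2 to 24 h 8 of 27 were, where 9.86% of all were. On its brightest probe set MAFF thus stood above BSA at 2, 6 and 12 h while its own level was lower at each later time. That difference from BSA reports the gap between arms, not an increase from 2 h. The other MAFF probe set, 11751684_a_at, read 4.54, 4.36, 4.55 and 4.33 in TNF-α at 2, 6, 12 and 24 h.

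No member's slope with log2 time passed. In limma fits with both arms, 0 of 18239 genes had a BSA slope past the threshold (654 at an unadjusted p under 0.05, 3.59%). For the change of the TNF-α minus BSA difference with time it was also 0 (675, or 3.70%), and for the TNF-α slope 1 gene, no member (1938, or 10.6%). JUN was the 1 member whose change of the difference had an unadjusted p under 0.05, at −0.67 ± 0.27 per doubling of the hours (adjusted p = 0.827). On this brightest probe set the change rests on the 24 h pair, without which it was −0.03 ± 0.07. Over the 4 times it was −0.81 ± 0.19 on 11718395_s_at, −0.65 ± 0.18 on 11718396_x_at and −0.50 ± 0.14 on 11718397_s_at. None of these passed (limma adjusted p = 0.779 for each). From 2 to 12 h their differences went from 2.25 to 1.22, from 1.67 to 0.9954 and from 2.05 to 1.0026 in that order. With hours in place of log2 hours the TNF-α slope of JUN passed (−0.13 ± 0.02 per hour, limma adjusted p = 0.0485), 1 of 10 members called lower, where 1.61% of all genes were. A straight line in log2 time also gives little weight to a dip and return such as that of MAFF in BSA, whose slope was −0.09 ± 0.33.

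At single times members at least 2-fold higher with TNF-α were JUN, FOSL2 and MAFF at 2 h (3 of 10, and 0.493% of all genes) and at 6 h (3 of 10, and 1.38%). At 12 h FOSL1 joined them (4 of 10, and 1.29%). At 24 h they were FOSL1 and FOSL2 (2 of 10, and 6.10% of all genes), and JUN was 2-fold lower (1 of 10, and 6.67%). The spread of the difference over all genes was 0.24, 0.38 and 0.38 (SD) at 2, 6 and 12 h and 0.73 at 24 h, when the median over all genes was 0.20. The part of the GAPDH gap in the 24 h values was not tested.

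Partners and regulators of AP-1 were taken from 5 lists. Of 21 measured bZIP factors that pair with or resemble AP-1, 2 were called higher with TNF-α than with BSA over 2 to 12 h and 0 lower. Over all genes 0.318% were called higher and 0.0493% lower. The median of the 21 was 0.17 against −0.01 over all genes, and 12 had an unadjusted p under 0.05, where 14.0% of all genes did. ATF3, a stress-induced repressor that pairs with JUN, was 1.15 ± 0.11 higher (limma adjusted p = 0.0305). It read 6.99, 4.84, 4.74 and 7.05 in BSA and 8.42, 5.94, 5.64 and 5.10 in TNF-α, so it was low at 6 and 12 h in BSA and back at 24 h, as MAFF was. CEBPD, a C/EBP factor of the acute phase response, was 0.82 ± 0.08 higher (limma adjusted p = 0.0291) and 0.60 higher at 24 h. Within the TNF-α arm, 12 h differed from 2 h by −2.77 for ATF3 and −0.93 for CEBPD. The called differences are thus gaps between arms, not increases from 2 h.

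None of the kinases and other regulators passed from 2 to 12 h, where 0.318% of all genes were called higher and 0.0493% lower. The unadjusted counts below stand beside 14.0% of all genes at an unadjusted p under 0.05. Of 17 measured genes of the MAP kinase cascade 0 passed with limma (5 at an unadjusted p under 0.05), with a median of −0.06. The p38 activators MAP2K6 and MAP2K3 lay furthest from 0, MAP2K6 at −0.09, −0.84 and −1.41 and MAP2K3 at 0.90, 0.91 and 0.44 at 2, 6 and 12 h. Of 6 serum response and ternary complex factors, which drive FOS, 0 passed (2 unadjusted, median −0.01), with ELK3 at 0.34 ± 0.13 and SRF at −0.23 ± 0.09. Of 7 regulators of AP-1 turnover and activity 0 passed (1 unadjusted, median −0.07), with the kinase GSK3B at 0.23 ± 0.15 and MEN1, which encodes the JUND-binding protein menin, at −0.22 ± 0.07.

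Of 20 measured genes known as AP-1 targets, 7 had an unadjusted p under 0.05 from 2 to 12 h, where 14.0% of all genes did, and the median was 0.05. Under the lower quartile of all probe sets on all 8 arrays were 4 of the 20, and 8 were above the median on all 8. In the limma test 2 were called higher with TNF-α than with BSA and 0 lower, where 0.318% of all genes were called higher and 0.0493% lower. They were the neutrophil attractant CXCL8 and the cytokine IL6, at 6.48 ± 0.66 (limma adjusted p = 0.0334) and 4.02 ± 0.45 (0.0464), both also NF-κB targets. Within the TNF-α arm, 12 h differed from 2 h by −3.54 for CXCL8 and −2.40 for IL6. CXCL8 in BSA lay at 3.37 to 3.48, close to background, so its difference is limited by that level. At 2, 6, 12 and 24 h 3, 4, 2 and 4 of the 20 were at least 2-fold higher and 0 lower at each, where 0.493%, 1.38%, 1.29% and 6.10% of all genes were higher and 6.67% were lower at 24 h. Over the 4 times 0 genes of any of the 5 lists passed with limma.

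For each member that spanned at least 1 log2 unit over 7 arrays (all except TNF-α, 24 h), the 3 genes with the most similar course were found among 3152 genes of that span, by Pearson r over those 7 arrays. These arrays share the time course and the treatment, so the values describe likeness and carry no test. JUN was most like IRF1, an interferon regulatory factor (r = 0.977), STARD4 (0.976) and PTX3, a secreted pentraxin (0.955). FOSL2 was most like PANX1, a membrane channel (0.984), MOB3C (0.982) and GRAMD2B (0.981). FOSL1 was most like ARPC3, a subunit of the actin-branching complex (0.978), ZFP36L2 (0.966) and ZC3H12A (0.955), the last both regulators of mRNA decay.

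MAFF was most like ATF3 (r = 0.974), the immediate early gene IER3 (0.959) and PPP1R15B (0.956). FOS did not span 1 log2 unit on its brightest probe set. On 11734659_a_at, chosen after its values were seen, it was most like CCN2, a matrix-associated growth regulator (0.952), SDHAF4 (0.941) and the immediate early factor EGR1 (0.940). On 11749291_a_at, which also spanned 1 log2 unit, FOS was most like other genes: FAM43A (0.941), TIPARP (0.939) and MXD3 (0.912). EGR1 read 10.4, 5.35, 5.59 and 9.46 in BSA and 9.33, 5.20, 5.15 and 8.62 in TNF-α, high at 2 and 24 h and low between in both arms.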

How the data were processed

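Expression was measured on 8 Affymetrix GeneAtlas arrays (platform of 49386 probe sets), 1 for each treatment and time, from 10 ng of total RNA with a 3′ IVT kit per the labels' protocols. The deposited values are log2 and were made with RMA per the submitters' processing notes; which program ran it and any filtering: not given in the sources used here. RMA corrects background, quantile-normalises and summarises probe sets, so small differences at low levels are compressed. The values were used as deposited.

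Symbols came from the platform annotation (18180 Entrez identifiers matched a RefSeq table, 62 did not). Tests used limma 3.58.1 under R 4.3.3 (two-sided, Benjamini-Hochberg over all genes, threshold 0.05), with time as a factor for TNF-α minus BSA (2 residual degrees of freedom from 2 to 12 h, 3 over 4 times), or with treatment, log2 hours and their product for slopes (4 degrees). SE is limma's. The fits were tested on simulated data with independent noise and constant differences or slopes. Those data cannot tell how the fits behave where the difference changes with time. The members, gene lists, the named genes (all members, up to 4 called genes of each list or else its 2 largest differences, and the 3 most similar courses) and the alternatives were chosen with earlier results of these data known. Alternatives were another choice or mean of probe sets, repeated quantile normalisation, centring, a filter on dim genes, array weights, no time block, hours in place of log2 hours, BSA arrays alone, and leaving out pairs; fitting the slopes by probe set was chosen after seeing the data.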

Additional observations from a re-analysis of the deposited data

Results flagged for a closer look

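JUN differed between arms in opposite directions at different times. On 11718394_at TNF-α minus BSA was 1.63, 1.53 and 1.55 at 2, 6 and 12 h and −1.20 at 24 h, and on 11718395_s_at it was 2.25, 1.20 and 1.22 and then −1.01. With 1 array for each treatment and time this contrast of 24 h with the earlier times was not tested by itself, and the straight-line change with log2 time did not pass with limma (−0.67 ± 0.27 per doubling for 11718394_at, adjusted p = 0.827). The TNF-α array at 24 h is the one whose GAPDH gap was 6.28, and its part in this result was not tested.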

How the results depend on the processing

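From 2 to 12 h 67 genes were called, 58 higher and 9 lower, and 4 members. With the mean of probe sets these were 36 genes and 2 members (JUN and MAFF), and without the time block 5 and 0. Leaving out 1 pair of arrays gave 0 to 1094 genes and 0 to 4 members. Over the 4 times 3 genes and 0 members were called; the mean of probe sets gave 1 gene, no time block 5, and array quality weights 62 genes and 2 members (FOSL1 and FOSL2). Leaving out 1 pair gave 0 to 67 genes and 0 to 4 members, the highest without 24 h. Counted at single times, 13 differences of members between arms and 3 changes from BSA at 2 h were at least 2-fold, against 7 and 5 with the mean of probe sets. After repeated quantile normalisation MAFF lost its call from 2 to 12 h (adjusted p = 0.0550), and 3 members remained called. Among fitted values of single members and the alternatives run, 325 kept direction and side of the threshold or stayed uncalled, 13 lost the call, 7 gained it and none called changed sign; of values at single times 188 moved by less than the gene's residual SD and 22 by more. The BSA slope was called for no member under the alternatives run. The TNF-α slope was called for 1 gene and no member, and with hours in place of log2 hours for 745 genes (452 up, 293 down) and 1 member, JUN; repeated quantile normalisation gave 2 genes, and the mean of probe sets, probe sets fitted singly and leaving out 24 h gave 0 each (1863, 4722 and 1239 unadjusted). These TNF-α slope alternatives were chosen after seeing the data. No paired analysis by replicate number was possible because the labels carry none, so time served as the block. Depth does not apply to arrays; BATF lay near background.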
